A study of Mus musculus with 3 samples.

Results

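The proteasome is the large protease that degrades ubiquitin-tagged proteins. The genes examined here encode its subunits, its activators and the chaperones that assemble it. Members were the probes whose gene symbol begins with Psma to Psmg followed by a number, which gave 61 probes for 50 genes of the 32395 genes and unnamed accessions on the array. The deposited columns used here hold an accession and no gene name, so the symbol was taken by matching that accession to RefSeq. Of the 50 genes, 14 encode the constitutive core, 3 the immunoproteasome, 17 the cap, 4 activators, 1 an inhibitor and 7 assembly chaperones. Psma8 and Psmb11 encode core subunits of testis and thymus. The pattern also takes Psmc3ip, a gene of meiotic recombination, and Psme3ip1, which encodes a protein that binds the Psme3 product, and neither is a proteasome gene.

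RNA came from lower-limb skeletal muscle of control male C57BL/6 mice (3 samples) and of male C57BL/6 mice with an inducible, skeletal muscle-specific deletion of FoxO1 (mFoxO1KO, 3 samples), described as biological replicates. Both groups ate an AIN93G diet with doxycycline at 0.625 g/kg between the ages of 8 and 14 weeks. The promoter that drives the deletion, and whether each sample is 1 animal or a pool, are not given in the sources used here. Each of 3 Agilent arrays of 2 colours carried control RNA in Cy3 and knockout RNA in Cy5, so a dye effect of a probe and the genotype cannot be told apart.

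In muscle the ubiquitin-proteasome system removes myofibrillar proteins during wasting, and FoxO factors are known as activators of muscle ubiquitin ligase genes. A barrel of alpha and beta rings forms the proteasome core, with the proteolytic sites on beta subunits. The cap, made of an ATPase ring, a base and a lid, recognises and unfolds ubiquitin-tagged substrates. Interferon-induced beta subunits replace the constitutive catalytic ones in the immunoproteasome, which favours peptides for MHC class I, and the Psme activators open the barrel without the cap.

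The promoters of 5 members are shown because Psme3 and Psme4 are the activators with the largest mean ratios, and Psmb8, Psmb9 and Psme1 are genes that interferon is known to induce. They are RefSeq windows on GRCm38.p6 of 300 bases each, with 250 bases before and 50 after the start of the gene, read 5′ to 3′ on the gene's strand. Capitals mark every match to the motifs searched.
Psme3, chr11:101315963-101316262, + strand: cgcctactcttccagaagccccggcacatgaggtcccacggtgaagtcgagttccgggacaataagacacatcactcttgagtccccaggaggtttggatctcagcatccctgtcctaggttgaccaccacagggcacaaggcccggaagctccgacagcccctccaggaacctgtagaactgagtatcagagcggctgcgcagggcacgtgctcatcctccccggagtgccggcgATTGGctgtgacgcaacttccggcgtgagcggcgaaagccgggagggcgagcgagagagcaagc
Psme4, chr11:30771525-30771824, + strand: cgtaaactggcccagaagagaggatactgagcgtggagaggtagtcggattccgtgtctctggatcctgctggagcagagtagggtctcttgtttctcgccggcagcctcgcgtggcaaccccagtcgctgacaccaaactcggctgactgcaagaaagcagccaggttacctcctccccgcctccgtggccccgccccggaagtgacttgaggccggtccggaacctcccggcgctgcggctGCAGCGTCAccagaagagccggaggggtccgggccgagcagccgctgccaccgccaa
Psmb8, chr17:34197945-34198244, + strand: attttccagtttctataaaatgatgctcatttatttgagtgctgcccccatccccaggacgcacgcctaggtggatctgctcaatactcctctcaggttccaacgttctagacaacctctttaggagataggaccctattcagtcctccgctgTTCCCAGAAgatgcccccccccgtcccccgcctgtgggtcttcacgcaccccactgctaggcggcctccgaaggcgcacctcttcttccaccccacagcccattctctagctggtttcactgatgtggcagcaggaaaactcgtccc
Psmb9, chr17:34187281-34187580, - strand: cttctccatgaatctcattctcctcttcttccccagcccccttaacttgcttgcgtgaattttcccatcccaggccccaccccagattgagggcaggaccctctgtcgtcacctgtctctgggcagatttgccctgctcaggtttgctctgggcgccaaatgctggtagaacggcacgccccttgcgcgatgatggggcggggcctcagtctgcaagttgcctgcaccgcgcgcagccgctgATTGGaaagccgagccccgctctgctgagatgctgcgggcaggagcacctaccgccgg
Psme1, chr14:55578244-55578543, + strand: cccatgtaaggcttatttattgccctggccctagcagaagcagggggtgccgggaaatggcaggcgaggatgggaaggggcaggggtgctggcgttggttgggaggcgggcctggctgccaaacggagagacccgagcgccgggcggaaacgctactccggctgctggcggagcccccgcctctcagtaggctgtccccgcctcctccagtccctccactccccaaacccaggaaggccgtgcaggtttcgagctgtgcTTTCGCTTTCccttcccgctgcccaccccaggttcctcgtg

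On both strands, 5 motifs were searched, namely the forkhead motif GTAAACA, the interferon-stimulated response element (GAAA, any pair of bases, then GAAA), the gamma-activated site TTCNNNGAA, the antioxidant response element TGACNNNGC and the CCAAT box. Windows existed for 42 of the 50 genes, 46 windows in all. The capitals are a CCAAT box on the opposite strand in Psme3 and Psmb9, an antioxidant response element on the opposite strand in Psme4, a gamma-activated site in Psmb8 and an interferon-stimulated response element on the opposite strand in Psme1. The forkhead letters were in 0 of the 46 member windows and in 3.65% of all 32851 windows. The antioxidant element, which Nfe2l1 and Nfe2l2 are known to bind, was in 6 member windows (13.04%) against 12.4% of all windows. The gamma-activated site was in 3 member windows (6.52%) against 8.30%, the interferon element in 5 (10.9%) against 3.44%, and the CCAAT box in 16 (34.8%) against 37.4%. The interferon element was in the windows of Psmb3, Psmd4, Psmd9, Psme1 and Psmg4, and not in those of Psmb8 and Psmb9. A match is a description of letters, and no test was made of these shares.

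Of the 50 genes, 48 were tested, and all 48 were well above background in both channels of every array. Psma8 and Psmb11 were not well above background in either channel of any array. The 10 muscle fibre markers checked, Ckm and Acta1 among them, were well above background in both channels of all 3 arrays. Foxo1 had a normalised log2 intensity of 11.33, 12.58 and 12.23 in controls 1, 2 and 3 and of 9.83, 10.16 and 9.96 in the knockouts of the same arrays, a log2 ratio of -2.06 ± 0.49 (SD, n = 3; limma, adjusted p = 0.0278), but whether its probe lies in the deleted part is not known here. The share of probes detected over background was 52.0% to 55.9% for control samples and 56.1% to 56.9% for knockouts, without saturated spots. The number of arrays limits the precision.

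The activator gene Psme3 was the only member past the threshold, and it rose in the knockout, while no member fell. That is 1 of 48 (2.08%), against 2.75% of all 17460 genes tested in either direction, 2.06% upward and 0.699% downward (limma, Benjamini-Hochberg adjusted p under 0.05). At an unadjusted p under 0.05 there were 12 members, 2 above 0 and 10 below, which is 25% against 26.8% of all genes (2676 genes above 0 and 2006 below). The control and knockout intensities did not overlap for 14 members (29.2%), against 25.8% of all genes. The ratio had 1 sign on all 3 arrays for 27 members (56.25%), against 52.4% of all genes. By these counts the share of members that differ in either direction is near that of all genes. The split by direction is not, with 10 of the 12 members below 0 and more of all genes above 0 than below. With median centring, 42 of the 48 means lay above 0, so signs depend on the scaling. Genes at or above the members' lower quartile of intensity had higher shares than the members. Of them, 3.51% were past the threshold and 31.6% had an unadjusted p under 0.05 (690 above 0, 641 below). The groups did not overlap for 32.8%, and 60.4% had 1 sign. The mean log2 ratio of knockout over control lay within 0.2 of 0 for 32 of the 48.

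**Figure D1:**
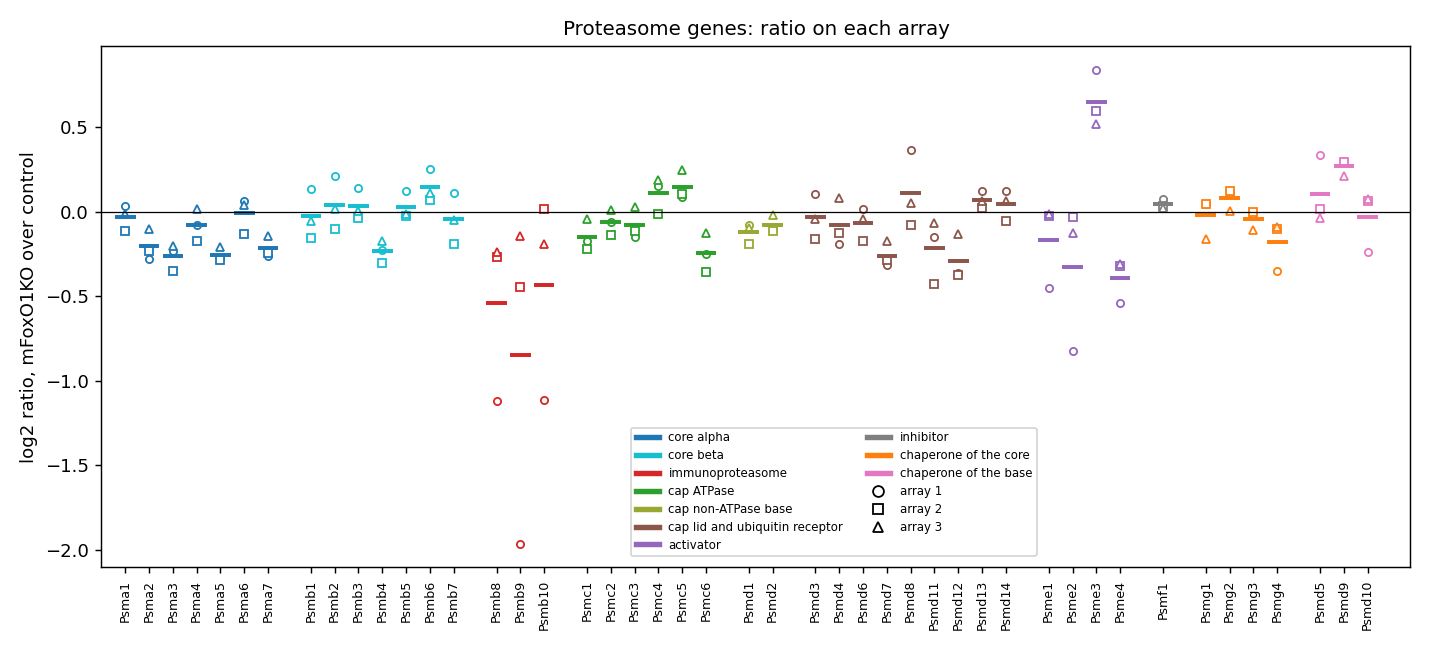
Log2 ratio of mFoxO1KO over control on the vertical axis for each of the 46 tested proteasome genes, with the 3 arrays as open symbols and their mean as a bar, coloured by class. Most bars lie near 0, and 32 of the 46 lie below it under loess. Median centring raises all genes to a median of 0.156, with 42 of the 48 tested members then above 0. Psme3 stands above at 0.65, and array 1 gives the lowest points of Psmb8, Psmb9, Psmb10 and Psme2.

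Psme3 encodes PA28gamma, a nuclear activator that opens the core for ubiquitin-independent degradation. Its log2 intensity was 11.02, 11.35 and 11.52 in controls 1 to 3 and 11.86, 11.95 and 12.04 in the knockouts on the same arrays. Every knockout value was above every control value, and the control of array 1 was the lowest of the 6. The log2 ratios were 0.84, 0.59 and 0.52, a mean of 0.65 ± 0.17 (SD, n = 3) or 1.57-fold, with a 95% confidence interval of 0.44 to 0.86 (limma, adjusted p = 0.0427). The array held 1 probe for Psme3, and Psme3ip1 had 0.081 ± 0.074 (adjusted p = 0.430). Psme3 kept an adjusted p under 0.05 in 9 of 16 alternatives, which gave ratios of 0.56 to 0.87 and adjusted p-values of 0.00443 to 0.158. Its adjusted p was 0.158 without array 2 and 0.0635 without array 3.

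Fat cell markers also stood higher in the knockout channel. All 7 adipocyte markers tested, of 8 listed, had means above 0, though none passed the threshold. Their median was 2.93, 0.22 and 1.87 on arrays 1 to 3. The log2 of their summed intensities was 15.27 to 16.49 in controls and 16.62 to 17.64 in knockouts. Lep, the leptin gene, was not well above background in any sample. The Psme3 ratios on the same arrays were 0.84, 0.59 and 0.52. Both were highest on array 1, but the adipocyte median was lowest on array 2 and the Psme3 ratio on array 3. The part of fat cells in the Psme3 value was not tested. In whole tissue, fewer cells of a type and less RNA per cell cannot be told apart.

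Psme4 encodes PA200, a large nuclear activator known for histone degradation. Its intensities were 11.81, 11.56 and 11.82 in the controls and 11.27, 11.23 and 11.51 in the knockouts, and again the groups did not overlap, with the knockouts low. The log2 ratio was -0.39 ± 0.13 (95% confidence interval -0.58 to -0.21; limma, adjusted p = 0.0631), just outside the threshold. A second Psme4 probe gave -0.27, -0.49 and -0.46, a mean of -0.41 ± 0.12. The mean of both probes passed (-0.40, limma, adjusted p = 0.0449), as did the first probe after quantile normalisation and scaling between arrays (-0.38, limma, adjusted p = 0.0390), the only passes among 16 alternatives. With median centring it was -0.17 (limma, adjusted p = 0.520). Psme3 and Psme4 thus lay on opposite sides of 0 on every array.

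Psme1 and Psme2 encode the alpha and beta chains of PA28, the interferon-inducible activator, and for both the highest sample was control 1. Psme1 had intensities of 12.12, 11.54 and 11.58 in the controls and 11.66, 11.52 and 11.57 in the knockouts. Control 1 stood 0.45 above the next of the 6 samples, and the other 5 spanned 0.15. Psme2 had 13.54, 12.58 and 12.62 in the controls and 12.72, 12.55 and 12.49 in the knockouts, with control 1 higher than the rest by 0.83. The log2 ratios were -0.16 ± 0.25 for Psme1 and -0.33 ± 0.43 for Psme2 (limma, adjusted p of 0.372 and 0.280). Without array 1 they were -0.021 and -0.080, and with median centring the Psme1 ratio was 0.053. The second Psme2 probe gave -0.49, 0.16 and 0.099 on the arrays. Psme2b is a near copy of Psme2, so the Psme2 values are uncertain if the probes read both.

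The immunoproteasome genes had the most negative means of the set, and in each case control 1 held the highest value of the 6 samples. Psmb8 encodes LMP7, the interferon-induced beta 5 subunit. It had log2 intensities of 10.04, 8.96 and 8.63 in the controls and 8.92, 8.69 and 8.40 in the knockouts, so that control 3 lay below knockouts 1 and 2. Psmb9, which encodes LMP2 at the beta 1 position, had 10.35, 8.15 and 7.81 in the controls and 8.39, 7.70 and 7.67 in the knockouts, with knockout 1 above controls 2 and 3. Psmb10, which encodes MECL1 at the beta 2 position, had 12.61, 11.05 and 11.15 in the controls and 11.49, 11.07 and 10.96 in the knockouts, and knockout 1 was again above controls 2 and 3. Control 1 exceeded the next sample by 1.08 for Psmb8, 1.97 for Psmb9 and 1.12 for Psmb10, and the groups overlapped for all 3 genes.

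The log2 ratios on arrays 1, 2 and 3 were -1.12, -0.27 and -0.24 for Psmb8, a mean of -0.54 ± 0.50 (limma, adjusted p = 0.164). For Psmb9 they were -1.97, -0.44 and -0.14, a mean of -0.85 ± 0.98, the largest SD of any member (adjusted p = 0.215). For Psmb10 they were -1.12, 0.016 and -0.19, a mean of -0.43 ± 0.60 (adjusted p = 0.292). None passed the threshold in any of the alternatives run, 15 for Psmb8 and Psmb9 and 16 for Psmb10. Without array 1 the means were -0.25, -0.29 and -0.088 (limma, adjusted p of 0.132, 0.178 and 0.561). The size of these ratios rests on array 1.

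Control 1 was the highest of the 6 samples by at least 0.4 for all 5 interferon-inducible members (Psmb8, Psmb9, Psmb10, Psme1 and Psme2), for 0 of the other 43 members and for 1.13% of all genes. Neither the gap of 0.4 nor the joining of these 5 genes was fixed beforehand, so the counts are a description. In the list of MHC class I loading and interferon control, control 1 was highest for 10 of 14 genes tested (15 listed), against 23.4% of all genes and 9 of the other 43 members, and highest by at least 0.4 for 6 of them. None of the 14 passed the threshold, 3 had means above 0 and 11 below, and their median was -0.14, against 0.0068 for all genes. On arrays 1, 2 and 3 the list's median was -0.43, 0.011 and -0.037. The 3 genes named by smallest p were Ifngr1, an interferon gamma receptor gene (0.40 ± 0.20), the peptide transporter gene Tap2 (-0.38 ± 0.33) and Nlrc5, a transactivator of MHC class I genes (-0.70 ± 0.94). Chosen after its values were seen, Irf1, a transcription factor gene that interferon gamma induces, had 12.84, 10.41 and 10.12 in the controls and 10.51, 10.38 and 9.86 in the knockouts. Control 1 was 2.32 above the next sample.

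The leukocyte markers summed highest in control 1. For the 5 tested, of 6 listed, the log2 of the summed intensities was 10.70 there. It was 9.92 and 9.74 in controls 2 and 3 and 9.91 to 10.28 in the knockouts. Cd52, Coro1a, Laptm5 and Rac2 were each highest in control 1. Cd53 went the other way, with 6.45, 6.43 and 6.47 in the controls and 6.65, 6.79 and 6.61 in the knockouts. It was well above background in 0 controls and 3 knockouts. Ptprc, the defining leukocyte marker CD45, was well above background in 1 control sample and in no knockout. The 6 macrophage markers tested, of 8 listed, all had means above 0 and summed to 11.09 to 11.57 in controls and 11.49 to 11.85 in knockouts. Here too array 1 stood apart. The macrophage median was -0.053, 0.62 and 0.61 on arrays 1 to 3, and control 1 was the highest control (11.57), above knockout 1 (11.49). Of 6 T cell markers listed, Cd3e and Cd4 were tested and summed to 8.64 to 8.81 in controls and 8.74 to 8.90 in knockouts, while Cd3g and Cd8a were not well above background in any sample. The B cell markers Cd79a and Ms4a1 were not either, and Cd79b alone of 4 listed was tested (6.65 to 6.83 in controls and 6.53 to 6.80 in knockouts). The part of immune cells in the immunoproteasome values was not tested.

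**Figure D2:**
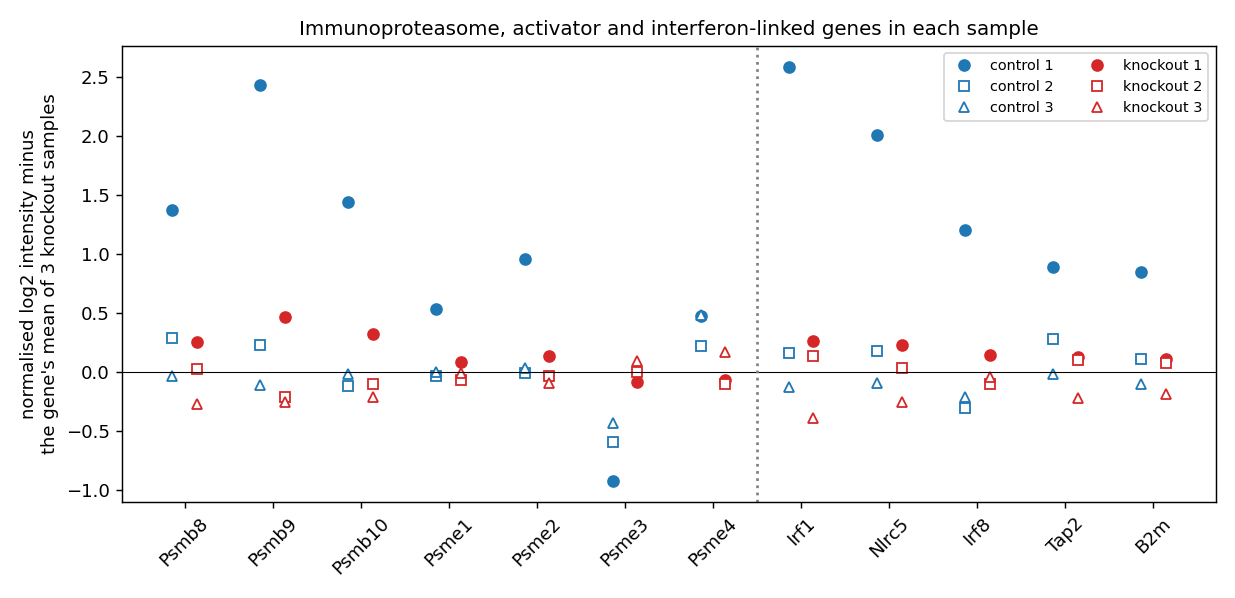
Normalised log2 intensity of each sample minus the gene's mean over the 3 knockout samples, for the immunoproteasome and activator genes (left of the dotted line) and for Irf1, Nlrc5, Irf8, Tap2 and B2m, chosen after their values were seen (right). Filled symbols are the samples of array 1. Control 1 stands 0.45 to 1.97 above every other sample for Psmb8, Psmb9, Psmb10, Psme1 and Psme2, and below every other sample for Psme3.

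The alpha ring of the core, which gates the barrel, and the beta ring, which holds the active sites, had different medians. All 7 alpha genes had means below 0 and a median of -0.21 (-0.23, -0.23 and -0.10 on arrays 1 to 3), but with median centring in place of loess that median was 0.12, where all genes had 0.156. The 7 beta genes had a median of 0.026 (0.13, -0.10 and -0.015 on the arrays), 4 means above 0 and 3 below, and with median centring 0.25. Relative to that median of all genes, the alpha median was -0.031 and the beta median 0.095. The genes at or above the members' lower quartile of intensity had a median of 0.26 with median centring. The alpha median lay below that value and the beta median close to it. None of the 14 core genes passed the threshold. The difference between the rings was not tested.

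Psma3, an alpha subunit gene, had the lowest mean of the alpha ring. Its log2 intensities were 15.12, 15.16 and 15.06 in the controls and 14.89, 14.81 and 14.86 in the knockouts, and all knockouts lay below all controls. The log2 ratio was -0.26 ± 0.076 (limma, adjusted p = 0.0872). Psma5 had the smallest SD of that ring, with ratios of -0.27, -0.28 and -0.21 and a mean of -0.26 ± 0.039 (adjusted p = 0.0795). Psma2 and Psma7, which with Psma5 were chosen after their values were seen, had -0.21 ± 0.091 and -0.22 ± 0.065, and for all 3 the groups did not overlap. Psma6 was the alpha gene nearest to 0 at -0.0080 ± 0.11. Psma1 had -0.031 ± 0.078. Psma4 had -0.079 ± 0.095 from its brighter probe and 0.013 from the other, so its sign differed between probes.

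In the beta ring, Psmb4 and Psmb6 lay at the ends. Psmb4, a subunit gene without a catalytic site, had 14.53, 14.62 and 14.54 in the controls and 14.30, 14.32 and 14.36 in the knockouts, a log2 ratio of -0.23 ± 0.066 (limma, adjusted p = 0.0975). Psmb6, which encodes the constitutive beta 1 subunit that LMP2 replaces, had 14.83, 14.96 and 15.02 in the controls and 15.08, 15.03 and 15.13 in the knockouts, a log2 ratio of 0.15 ± 0.098 (adjusted p = 0.229). For both the groups did not overlap, with the knockouts low for Psmb4 and high for Psmb6. The other constitutive catalytic genes, Psmb5 and Psmb7, had 0.026 ± 0.083 and -0.041 ± 0.15. The means of Psmb1, Psmb2 and Psmb3 were -0.026, 0.042 and 0.034. The constitutive and interferon-induced genes of each catalytic position compare as follows on arrays 1, 2 and 3. Psmb5 had 0.12, -0.028 and -0.015 and Psmb8 -1.12, -0.27 and -0.24. Psmb6 had 0.26, 0.068 and 0.11 and Psmb9 -1.97, -0.44 and -0.14. Psmb7 had 0.11, -0.19 and -0.047 and Psmb10 -1.12, 0.016 and -0.19. All 3 pairs lay on opposite sides of 0 on array 1, whose control 1 stands apart. On arrays 2 and 3 the pair of Psmb5 and Psmb8 lay on the same side. That of Psmb7 and Psmb10 was reversed on array 2 and on the same side on array 3. Only Psmb6 and Psmb9 lay on opposite sides, Psmb6 above 0 and Psmb9 below, on all 3 arrays.

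**Figure D3:**
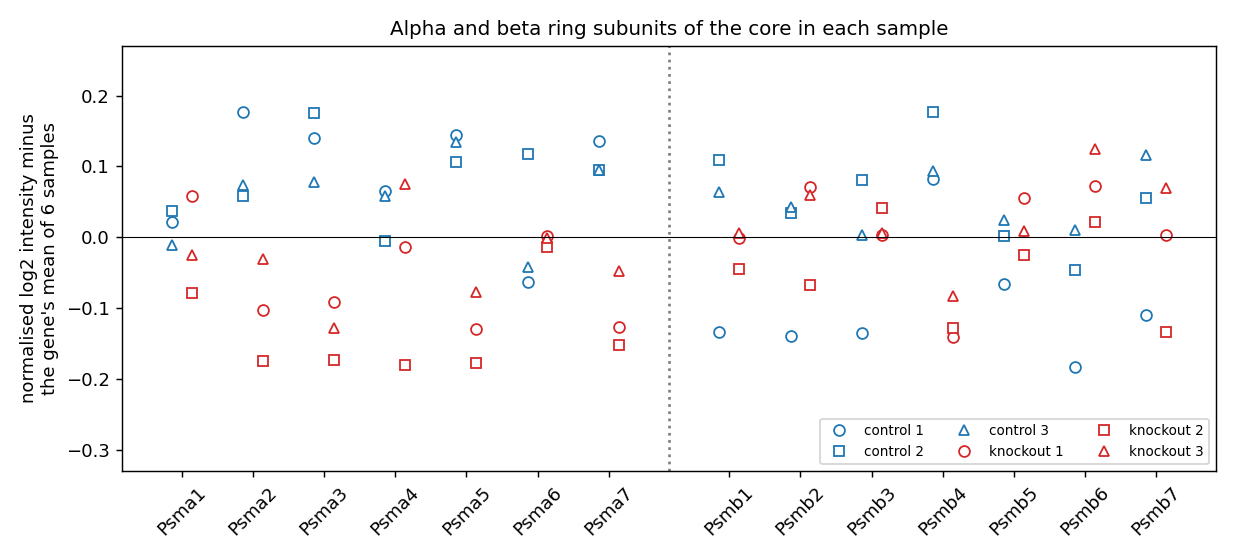
Normalised log2 intensity of each sample minus the gene's mean over the 6 samples, for the 7 alpha and 7 beta subunit genes of the constitutive core. Knockout values lie below all control values for Psma2, Psma3, Psma5, Psma7 and Psmb4, and above all control values for Psmb6. These are loess-normalised values. With median centring the alpha median is 0.12, which is -0.031 relative to the median of all genes. Genes at or above the members' lower quartile of intensity then have a median of 0.26.

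The cap genes had a median of -0.078 over 17, with 5 means above 0 and 12 below, and none passed the threshold; with median centring the median was 0.25. In the ATPase ring, which unfolds substrates, Psmc6 was lowest. Its log2 intensities were 13.08, 13.01 and 13.01 in the controls and 12.83, 12.66 and 12.88 in the knockouts, without overlap, for a ratio of -0.24 ± 0.12 (limma, adjusted p = 0.114). Psmc5 was the highest ATPase gene at 0.15 ± 0.087 (adjusted p = 0.216). Its intensities were 12.98, 11.17 and 12.94 in the controls and 13.07, 11.27 and 13.18 in the knockouts, so both channels of array 2 were dimmer than those of the other arrays. Psmc1 had -0.15 ± 0.093 from its brighter probe and 0.0021 from the other. Psmc2, Psmc3 and Psmc4 had -0.063, -0.079 and 0.11.

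Of the base, Psmd1 and Psmd2 encode the large scaffold subunits and had -0.12 ± 0.059 and -0.078 ± 0.050 (limma, adjusted p of 0.253 and 0.422). Psmd1 intensities were 14.54, 14.60 and 14.63 in the controls and 14.46, 14.42 and 14.53 in the knockouts, where the lowest control nearly met the highest knockout. Of the lid genes and the ubiquitin receptor gene Psmd4, 6 of 9 had means below 0. Psmd12, a lid gene, was lowest, with 14.77, 14.72 and 14.68 in the controls and 14.41, 14.35 and 14.55 in the knockouts, a ratio of -0.29 ± 0.14 (adjusted p = 0.0994), although its second probe gave -0.092 ± 0.015. Psmd7, which encodes the partner of the lid's deubiquitinase and was chosen after its values were seen, had -0.26 ± 0.076 (adjusted p = 0.0875) and no overlap. Psmd14, the deubiquitinase gene itself, had 0.045 ± 0.091. Psmd8 was highest at 0.11 ± 0.23, with 0.37, -0.078 and 0.052 on the arrays. Psmd11 had -0.21 ± 0.19, Psmd4 -0.079 ± 0.14, Psmd6 -0.068 ± 0.098, Psmd3 -0.032 ± 0.13 and Psmd13 0.071 ± 0.050.

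The 7 chaperone genes had a median of -0.022, 3 means above 0 and 4 below, and none past the threshold; with median centring the median was 0.19. Psmd9, a chaperone of the ATPase base, had log2 intensities of 8.79, 8.81 and 8.96 in the controls and 9.09, 9.10 and 9.17 in the knockouts. The knockouts were above the controls without overlap, with ratios of 0.30, 0.30 and 0.21 and a mean of 0.27 ± 0.051 (limma, adjusted p = 0.0770), but the second Psmd9 probe gave 0.048 ± 0.037. The other base chaperone genes, Psmd5 and Psmd10 (gankyrin), had 0.10 ± 0.20 and -0.033 ± 0.18, and the second Psmd10 probe had 0.084. Among the chaperone genes of the core, Psmg4 had -0.18 ± 0.15 (adjusted p = 0.211), Psmg2 0.080 ± 0.063, Psmg3 -0.043 ± 0.058 and Psmg1 -0.022 ± 0.12, with 0.012 from the second Psmg1 probe. Psmf1, which encodes the inhibitor PI31, had 8.06, 8.18 and 8.33 in the controls and 8.14, 8.22 and 8.35 in the knockouts, a ratio of 0.045 ± 0.028, the smallest SD of any member (adjusted p = 0.636). The non-proteasome gene Psmc3ip had -0.14 ± 0.059.

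Across classes the medians were -0.54 for the immunoproteasome, -0.25 for activators, -0.078 for the cap, -0.036 for the core and -0.022 for chaperones, beside 0.0068 for all genes tested. Of the 48 members, 33 had means below 0 (68.8%), against 48.2% of all genes and 51.8% of genes at or above the members' lower quartile of intensity, but with median centring 42 of 48 were above 0 (87.5%), as were 79.0% of all genes and 91.4% of those brighter genes. Centring put the median at 0.21 for the members, 0.156 for all genes and 0.26 for the brighter genes, and 31 of the 48 members lay below the last of these, against 33 of 48 below the same genes' median under loess. Relative to the median of all genes under centring, the medians were -0.52, -0.17, 0.095, 0.068 and 0.038 in the same order of classes. Of these 5 classes, the immunoproteasome and the activators were the only ones whose median lay below that of all genes under both scalings. Against the brighter genes, whose median was -0.0078 under loess, all 5 class medians were lower under both scalings. That set is not matched in intensity to every class. It starts at an average log2 intensity of 11.24, while the median was 9.76 for the chaperones and 8.95 for the immunoproteasome. With median centring the cap had 0.25, the core 0.22 and the chaperones 0.19, against 0.26 for the brighter genes. The activator median joins genes on both sides of 0 and was -0.050 without array 1. No test was made between classes.

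**Figure D4:**
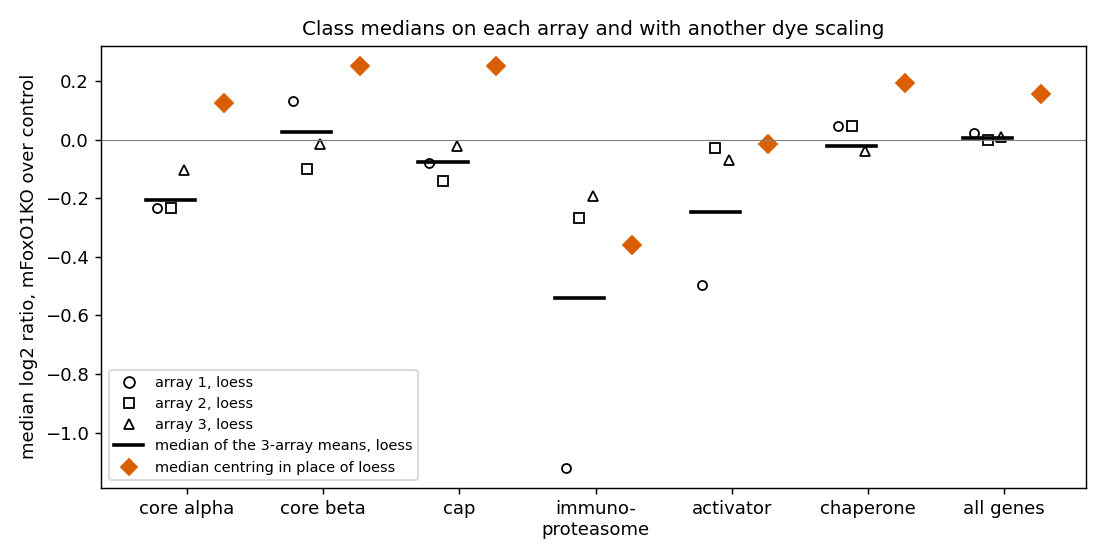
Median log2 ratio of mFoxO1KO over control for each class of proteasome genes and for all genes tested, on each array (open symbols), for the means of 3 arrays (bars) and with median centring in place of loess (orange diamonds). The immunoproteasome median is -1.12 on array 1, against -0.27 and -0.19 on arrays 2 and 3, and the core, cap and chaperone diamonds lie above 0.

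Of other genes that act with the proteasome, none passed the threshold. Of 17 tested (18 listed) proteasome partners outside the Psm names, 7 had means above 0 and 10 below, with a median of -0.057. The 3 with the smallest p were Txnl1, a thioredoxin-like protein gene of the cap (-0.26 ± 0.10, limma, adjusted p = 0.0985), Zfand5, a proteasome-activating zinc finger gene (-0.39 ± 0.23), and the lid subunit gene Sem1 (-0.17 ± 0.079). Pomp, the maturation factor gene of the core, was chosen after its values were seen and had -0.17 ± 0.13. Of 9 tested (10 listed) genes that control proteasome transcription, 6 were above 0 and 3 below, with a median of 0.041. Nfe2l1, the factor that restores proteasome gene expression after inhibition, was also chosen afterwards and had 0.12 ± 0.16. Its activating protease gene Ddi2 and deglycosylase gene Ngly1 had -0.34 ± 0.25 and -0.34 ± 0.21, and its small partner gene Maff had 0.39, 1.499 and 1.53 on the arrays (mean 1.14 ± 0.65, limma, adjusted p = 0.0785).

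Of 12 genes of ubiquitin and its enzymes, 5 were above 0 and 7 below, with a median of -0.028. Ube2n, which builds ubiquitin chains for signalling, had -0.34 ± 0.12 (limma, adjusted p = 0.0732), and the ubiquitin gene Ubb had 0.35 ± 0.29, with 0.38, 0.054 and 0.63 on the arrays.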

How the data were processed

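Control RNA carried Cy3 and mFoxO1KO RNA Cy5, per the labels. Deposited were scans read by Agilent Feature Extraction (11.5.1.1 per the file headers, 9.3.2.1 per the submitters' processing notes) with 44397 spots per array. They hold median spot and background intensity values as scanned, and, per the file headers, processed intensity values and their log10 ratio, deposited as corrected by that software. Here intensities were background-corrected with normexp (offset 50) and loess-normalised, control spots weighted 0 (limma 3.58.1, R 4.3.3), and 281 to 319 outlier spots per array were left out. Median signals were used. Spots were averaged by probe, and probes were kept if well above background in 1 channel on all 3 arrays, and the brightest probe stood for a gene. Symbols came from matching accessions to a RefSeq table of GRCm38.p6 (27508 of 39429 probes matched). Log2 ratios were tested against 0 with limma (lmFit, eBayes, two-sided, Benjamini-Hochberg over 17460 genes), and ± is the SD over 3 arrays. Both genotypes share each array, which pairs them.

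Per-sample log2 intensities are loess-normalised channels after quantile normalisation of the average intensity. They are not comparable between probes. A summed level of a marker list is the log2 of the linear intensities added over its tested genes, so the brightest probes weigh most. Other gene copies, such as pseudogenes of core subunit genes, could share signal with a probe. Probe sequences were not used here, so this was not tested. The fit was tested on simulated data. The members and lists were chosen with earlier results of these data known. Named were all immunoproteasome, activator, inhibitor and chaperone genes, the extreme genes of each other class, members past the threshold, those with the largest and smallest SD, those whose probes differ in sign, and up to 3 genes of each pathway list by smallest p. Remaining members are given for completeness. Most genes of the marker and pathway lists enter only as counts, medians and summed levels, and some are not reported here.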

Additional observations from a re-analysis of the deposited data

How the results depend on the processing

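The count of members past the threshold was 1 with all arrays and ranged from 0 to 2 over 16 alternatives. It was 0 with plain background subtraction, with the deposited log ratios, with probes above background in both channels, with separate channels and no replicate block, and among genes at or above the median intensity (a setting chosen after seeing the data). It was 2 with quantile normalisation and scaling between arrays and with the mean of a gene's probes, where Psme4 passed as lower. Leaving out 1 array gave 0 to 1. The count over all genes, 481, was 247 with plain subtraction, 200 with deposited log ratios, 1205 (1154 higher) with median centring, 842 with scaling between arrays, 747 without a filter, 55 with both channels above background, 216 with no replicate block, 9 among brighter genes, and 50 to 434 when 1 array was left out (50 without array 2, 154 without array 3). Separate channels with the array as a replicate block repeat the paired fit by construction, with 481 and 1 calls. With median centring the medians were 0.21 for all proteasome members, 0.22 for the core, 0.12 for alpha, 0.25 for beta, 0.25 for the cap and 0.19 for chaperones. The chaperone median was 0.030 over all probes and -0.056 to 0.046 when 1 array was left out. The immunoproteasome median stayed below 0 in 16 of 16 alternatives (-0.69 to -0.25), as did the activator median (-0.33 to -0.014). These alternatives are not 16 separate checks of a median. The other variance model and the separate channels leave every class median as it was by construction. The immunoproteasome median was also the same -0.54 under the other background filters and probe choices, with 1 probe for each of its genes. Beyond those that follow from the setting itself (fewer arrays or genes), the cause of these differences was not tested. Psma8 and Psmb11 had no measurement because of low signal over background.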
